A study of Mus musculus with 16 samples.

Results

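The 10 genes described here are 7 genes of secreted Wnt inhibitors (Sfrp1, Sfrp2, Sfrp4, Sfrp5, Frzb, Wif1 and Dkk3), the Wnt co-receptor genes Lrp5 and Lrp6, and Axin2, an intracellular feedback inhibitor. They were chosen by symbol, with earlier results of these data known, out of 19505 genes with a symbol on the arrays. Each was measured by 1 probe set, a group of probes summarised to 1 log2 signal. Signals were measured in the mouse intervertebral disc, in the gel-like nucleus pulposus (NP) and in the annulus fibrosus (AF), the fibrous ring around it. RNA of 8 female mice, aged 3 to 4 months, was hybridised to 16 arrays. The 4 control mice (CTR) were Sox9fl/fl, with both Sox9 copies flanked by recombination sites, and the labels name no Cre for them. The 4 conditional knockout mice (cKO) were AcanCreERT2Sox9fl/fl, in which a tamoxifen-inducible Cre is driven by Acan, the aggrecan gene, so that deletion takes place in cells that use this promoter. The cKO mice received tamoxifen on 2 consecutive days, and tissue was collected 5 days after the first injection. The labels do not state that the controls received tamoxifen, so that an effect of the drug and of the genotype cannot be told apart. Lumbar and tail discs of a mouse were pooled by tissue, which gave 1 NP and 1 AF array per mouse and 4 arrays in each of the groups AF CTR, AF cKO, NP CTR and NP cKO.

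Wnt ligands bind Frizzled receptors together with Lrp5 or Lrp6, and the resulting complex keeps beta-catenin from being degraded. Secreted frizzled-related proteins (Sfrp1, Sfrp2, Sfrp4, Sfrp5 and Frzb, which is also called sFRP3) and Wif1 bind Wnt ligands outside the cell, while Axin2 is a scaffold of the complex that degrades beta-catenin and is itself switched on by the pathway. In cartilage and skeletal tissue, Frzb is known as an antagonist that restrains Wnt signalling in chondrocytes, and Sox9, the transcription factor of the chondrocyte programme, and beta-catenin are known to oppose each other.

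RefSeq promoters (GRCm38.p6) were matched for 5 of the 10 genes: Sfrp2, Sfrp5, Frzb, Wif1 and Axin2. Those of Sfrp5, Frzb and Wif1 are shown because the first 2 of these had the lowest cKO to CTR ratios in the AF and the third had a high AF signal in both genotypes. Each run gives the 250 bases before the annotated start, 5′ to 3′ on the gene's strand, and capitals mark matches on either strand to the GC box GGGCGG, the TATA box TATAAA or the TCF/LEF core CTTTGA.
Sfrp5, chr19:42202253-42202502, minus strand: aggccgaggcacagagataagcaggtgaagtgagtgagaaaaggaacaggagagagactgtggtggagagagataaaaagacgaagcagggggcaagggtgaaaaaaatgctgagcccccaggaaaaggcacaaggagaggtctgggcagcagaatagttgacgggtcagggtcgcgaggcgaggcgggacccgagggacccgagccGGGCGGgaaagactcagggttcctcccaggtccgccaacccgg
Frzb, chr2:80447397-80447646, minus strand: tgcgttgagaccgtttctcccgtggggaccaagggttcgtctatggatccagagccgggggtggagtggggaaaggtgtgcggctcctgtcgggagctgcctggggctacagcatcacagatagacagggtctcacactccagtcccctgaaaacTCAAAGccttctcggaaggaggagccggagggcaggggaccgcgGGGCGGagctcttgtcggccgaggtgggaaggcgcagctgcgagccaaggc
Wif1, chr10:121033754-121034003, plus strand: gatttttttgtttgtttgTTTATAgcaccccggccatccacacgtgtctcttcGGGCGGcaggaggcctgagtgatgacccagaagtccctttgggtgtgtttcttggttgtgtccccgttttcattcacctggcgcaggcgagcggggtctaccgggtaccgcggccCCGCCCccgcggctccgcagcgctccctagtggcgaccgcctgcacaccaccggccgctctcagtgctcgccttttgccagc
The SOX cores ACAAAG and ACAATG and the CCAAT box CCAAT were also searched on both strands and had no match in these 3 windows or in those of Sfrp2 and Axin2, which says only that these letters are not in the windows. ACAAAG is the reverse complement of CTTTGT and so also resembles a TCF/LEF site. Over all 32851 promoter windows of this length, 16.5% held ACAAAG, 10.7% ACAATG, 13.8% CTTTGA, 33.8% CCAAT, 32.7% GGGCGG and 12.4% TATAAA. The Frzb window holds a CTTTGA match that begins 95 bases before the start, and GC boxes lie 43 bases before the Sfrp5 start and 51 bases before the Frzb start. The GC content was 59.6% for Sfrp5, 64.4% for Frzb and 62.8% for Wif1, against a median of 52.4% over all windows. A match is a description of the letters and not a measured binding site.

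The arrays of a group correlated with r from 0.963 to 0.983 across the 22206 probe sets tested. The medians of the 5222 negative control probe sets, used as a measure of background, ran from 6.14 to 6.59 over the arrays, and their 95th percentiles from 9.74 to 10.78. Sox9 was lower in cKO by 91.4-fold in the NP and by 25.7-fold in the AF (adjusted p = 3.1e-10 and 1.1e-07, limma). Of 12 AF and tendon markers, 9 were called lower in NP CTR than in AF CTR, among them Col1a1, Col1a2 and Dcn. Of 11 measured NP and notochord markers, 5 were higher in NP CTR (Krt8, Krt18, Krt19, Cd24a and Cdh2), 2 were lower (Foxa2 and Car12), and the notochordal genes Shh, Noto and Foxa1 did not pass the test. The AF arrays also carried markers of cartilage, bone, marrow and muscle, in amounts that differed between arrays. The mean log2 signal of 12 neutrophil and granulocyte markers ran from 6.46 to 11.98 in AF CTR (11.98 in replicate 1) and from 9.59 to 13.40 in AF cKO (13.40 in replicate 3), against 5.60 to 7.90 in all NP arrays. The mean of 12 skeletal muscle markers was 10.56 and 9.72 in AF cKO replicates 2 and 4 and at most 7.48 in the other AF arrays. The mean of 14 cartilage markers ran from 11.59 to 14.27 in AF CTR and from 10.78 to 11.77 in AF cKO. In NP cKO replicate 4, the 12 AF and tendon markers averaged 8.86, above the other NP arrays (7.34 to 8.18).

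**Figure D1:**
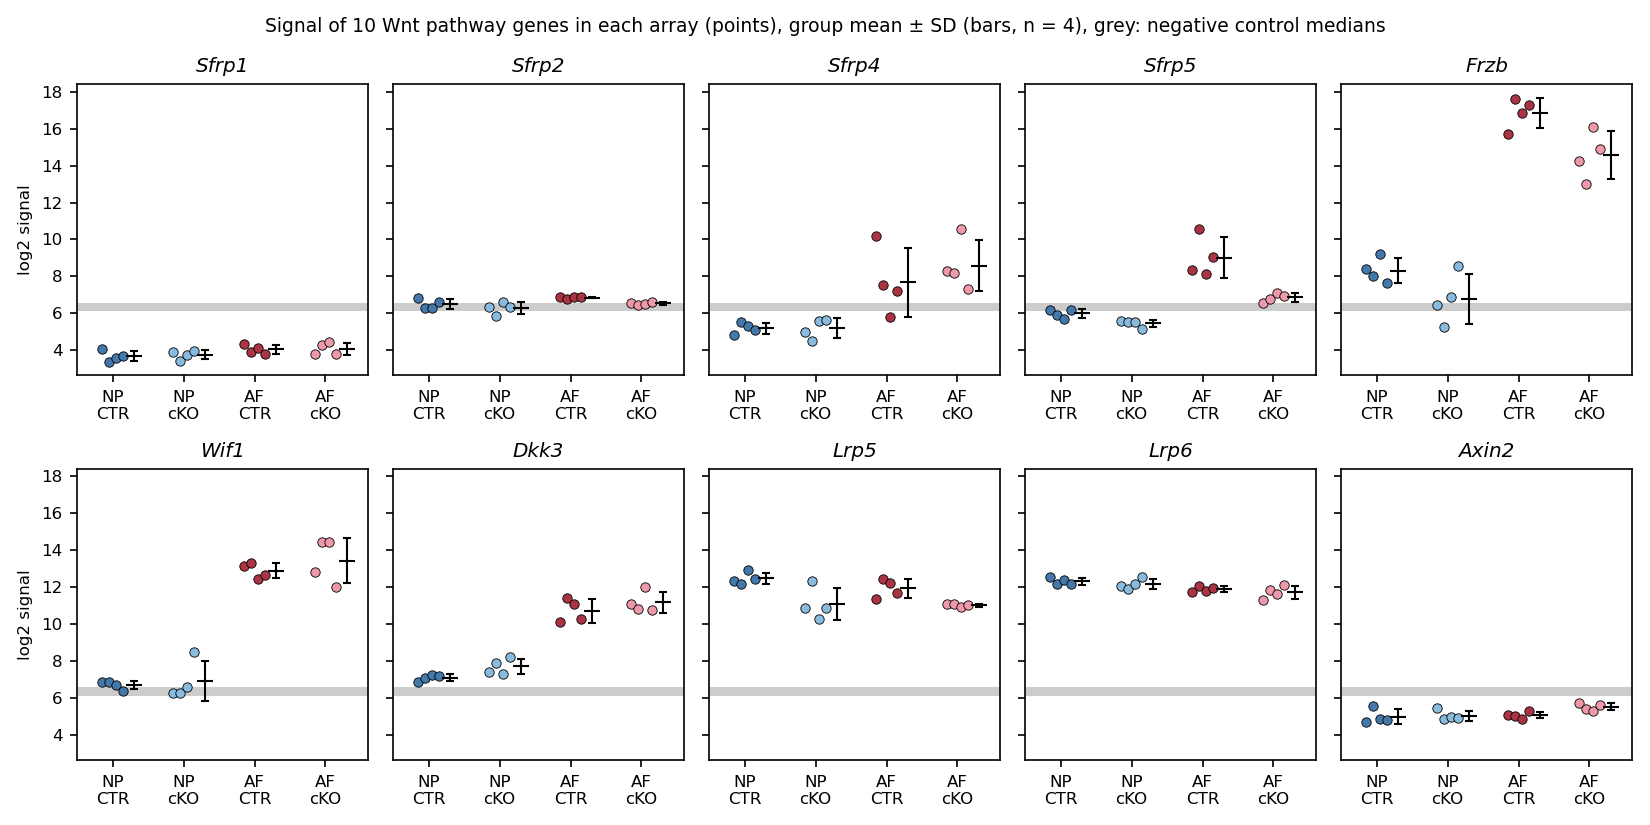
Log2 signal (vertical axis) of each of the 10 genes in the 16 arrays, 1 panel per gene, with 1 point per array in the order of replicates 1 to 4 and, beside the points, the group mean with SD (n = 4). The grey band marks the negative control medians (6.14 to 6.59). Frzb, Wif1 and Dkk3 stand far higher in all AF arrays than in all NP arrays, and Sfrp5 is higher in AF CTR than in the other groups. Signals of different genes come from different probes and are not to be compared with each other.

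The compartments were compared first, NP minus AF in the same genotype, to ask where each inhibitor is expressed in the disc. Frzb, Wif1, Dkk3, Sfrp5 and Sfrp4 were all lower in the NP than in the AF, in control and in cKO mice alike, while Sfrp1, Sfrp2, Lrp5, Lrp6 and Axin2 were not called. A gene counts as called where limma's p, adjusted by Benjamini and Hochberg's method for all 22206 probe sets, is under 0.05. In CTR, 5 of 10 members were called, where 20.1% of all probe sets were called. In cKO, 5 of 10 were called against 25.9%. All of these calls were lower in the NP, as were 10.1% of all probe sets in CTR and 12.6% in cKO. At an unadjusted p under 0.05 there were 5 members in CTR (32.8% of all probe sets) and 7 in cKO (38.8%), and 5 in each at the thresholds the labels name, an unadjusted p under 0.05 with a fold of at least 1.75 (16.4% and 20.4%). The groups did not overlap for 6 members in CTR (22.6% of all probe sets) and for 5 in cKO (26.8%). In bulk tissue, fewer cells of a type and less RNA per cell cannot be told apart.

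Frzb, a Wnt-binding frizzled-related protein of cartilage, showed the largest difference between compartments among the 10 genes. In AF CTR replicates 1 to 4 its log2 signal was 15.70, 17.58, 16.87 and 17.26, against 8.38, 8.0, 9.23 and 7.65 in NP CTR. In cKO it was 14.27, 12.98, 16.07 and 14.90 in the AF and 6.45, 5.29, 6.90 and 8.54 in the NP. Every AF array lay above every NP array, and the NP value of cKO replicate 4 was within the range of NP CTR. The difference, NP minus AF, was -8.54 (SE 0.63, limma, adjusted p = 4.3e-08) in CTR, or 371-fold. In NP cKO only 2 of 4 arrays exceeded their own negative control median, so that the difference of -7.76 (SE 0.63, adjusted p = 1.7e-07) was converted into a bound. With NP signals raised to the negative control median of their array, as in all bounds given here, AF cKO was at least 176-fold higher than NP cKO. These bounds take the negative control median as background, although part of the negative controls lie above it. They do not allow for the spread between arrays.

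Wif1, which encodes a secreted inhibitor that binds Wnt ligands directly, was 13.16, 13.32, 12.47 and 12.66 in AF CTR and 6.87, 6.85, 6.73 and 6.41 in NP CTR. It was 12.84, 14.47, 14.44 and 12.01 in AF cKO and 6.30, 6.29, 6.60 and 8.52 in NP cKO. The NP signals lay close to background except in NP cKO replicate 4, the array with the highest AF and tendon markers among the NP arrays. The AF was at least 71.4-fold higher than the NP in CTR and at least 85.9-fold higher in cKO (NP minus AF -6.19 and -6.51, SE 0.50 each, adjusted p = 1.2e-07 and 9.4e-08, limma).

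Dkk3, a secreted Dickkopf family protein whose effect on Wnt signalling varies with the cell type, was 10.12, 11.44, 11.10 and 10.26 in AF CTR and 6.85, 7.07, 7.26 and 7.22 in NP CTR. In cKO it was 11.08, 10.85, 12.03 and 10.76 in the AF and 7.44, 7.88, 7.33 and 8.25 in the NP. The compartments did not overlap in either genotype, and the highest NP value was again that of cKO replicate 4. The AF was 12.4-fold higher in CTR (-3.63, SE 0.32, adjusted p = 2.6e-07, limma) and 11-fold higher in cKO (-3.46, SE 0.32, adjusted p = 6.0e-07).

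Sfrp5 and Sfrp4, both secreted frizzled-related proteins, were at or under background in the NP, with 0 of 8 NP arrays above the negative control median of their own array for either gene. Sfrp5 was 8.34, 10.58, 8.12 and 9.05 in AF CTR and 6.21, 5.91, 5.68 and 6.18 in NP CTR. The AF was at least 5.63-fold higher in CTR (NP minus AF -3.02, SE 0.36, adjusted p = 1.1e-05, limma). In cKO, Sfrp5 was 6.59, 6.80, 7.13 and 6.97 in the AF and 5.57, 5.55, 5.54 and 5.18 in the NP. The difference was -1.41 (SE 0.36, adjusted p = 0.00868, limma). As a bound it was 0.38 on the log2 scale, or 1.30-fold, which is about the size of that SE. The Sfrp5 call in cKO was lost when NP cKO replicate 4 and AF cKO replicates 2 and 4 were left out together (-1.30, SE 0.50, adjusted p = 0.0955).

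Sfrp4 was 10.21, 7.54, 5.79 and 7.20 in AF CTR and 8.28, 8.21, 10.55 and 7.30 in AF cKO. In the NP it ran from 4.83 to 5.52 in CTR and from 4.53 to 5.67 in cKO. AF CTR replicate 3 was also under its background, and the spread of the AF groups (SD 1.85 and 1.38) was the widest among the 10 genes. The 95th percentile of the negative controls was exceeded in 0 of 4 AF CTR and 1 of 4 AF cKO arrays, so that the AF signal was itself dim. The AF was at least 2.23-fold higher in CTR (NP minus AF -2.48, SE 0.69, adjusted p = 0.0161, limma) and at least 4.28-fold higher in cKO (-3.39, SE 0.69, adjusted p = 0.00183). The bound in CTR was 1.15 on the log2 scale, beside that SE of 0.69. The call in CTR was lost without AF CTR replicate 1 (-1.64, SE 0.55, adjusted p = 0.0516). Marrow markers and Sfrp4 were both highest in AF cKO replicate 3 (13.40 for neutrophil and granulocyte markers, 10.55 for Sfrp4) and both lowest among AF arrays in AF CTR replicate 3 (6.46 and 5.79). The order was not the same throughout: in AF CTR replicate 1 the markers averaged 11.98 beside a Sfrp4 signal of 10.21, while in AF cKO replicates 1 and 2 they averaged 12.18 and 12.01 beside 8.28 and 8.21. The osteoblast and osteocyte markers averaged 10.04 and 7.71 in AF CTR replicates 1 and 3, and 9.41, 8.89 and 11.22 in AF cKO replicates 1 to 3. The part of marrow and bone in the Sfrp4 signal was not tested.

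**Figure D2:**
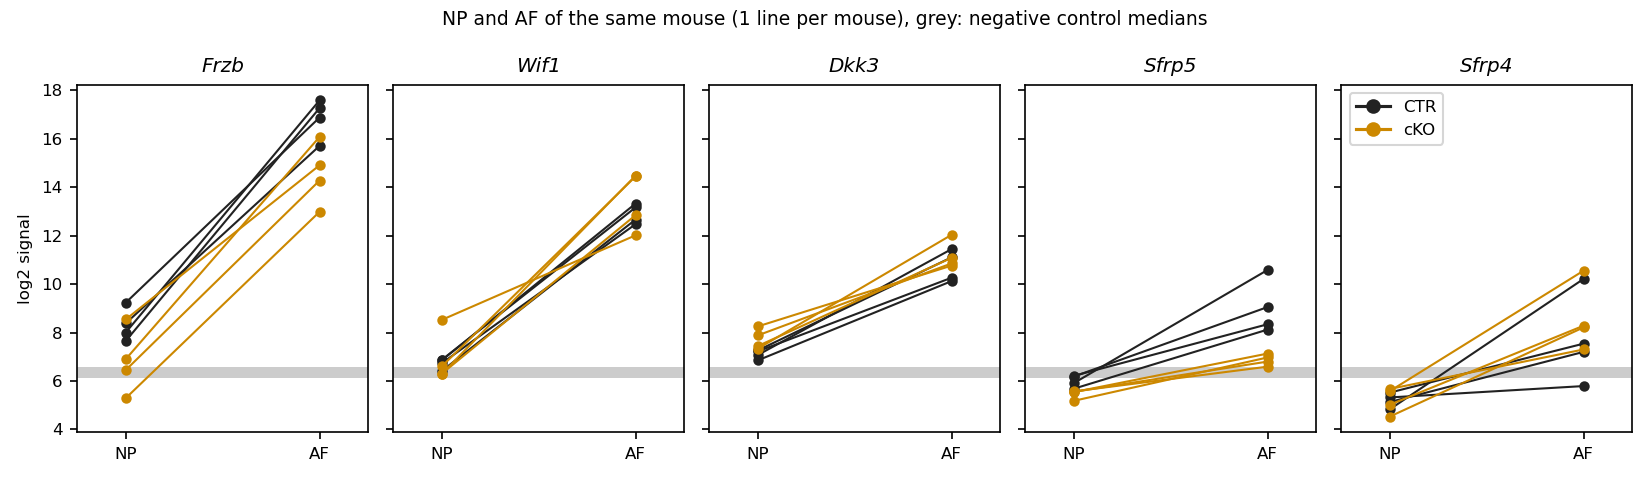
Log2 signal (vertical axis) in the NP and the AF of each mouse, joined by 1 line per mouse, for the 5 genes called between compartments, with CTR mice in black, cKO mice in orange and the negative control medians as a grey band. All lines rise from NP to AF, from 6.36 to 9.61 for Frzb and from 0.46 to 5.38 for Sfrp4 (log2).

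Within single mice, the AF signal exceeded the NP signal in 8 of 8 mice for Frzb, Wif1, Dkk3, Sfrp5 and Sfrp4. The difference, NP minus AF, lay between -9.61 and -6.36 for Frzb, between -8.18 and -3.49 for Wif1, and between -4.70 and -2.51 for Dkk3. For Lrp6 the order was the opposite, and the NP exceeded the AF in 8 of 8 mice by 0.04 to 0.80. Between compartments other cell types differed as well. In CTR, 13 of 14 cartilage markers (11 called), 9 of 9 osteoblast and osteocyte markers (7 called) and 9 of 9 endothelial markers (8 called) were lower in the NP, and in cKO all 12 neutrophil and granulocyte and 10 of 12 skeletal muscle markers were called lower in the NP. The part of these cells in the compartment differences was not tested. With each array centred on its median, the share of called probe sets that were higher in the NP moved from 49.6% to 65.1% in CTR, and the median difference of all probe sets from 0.04 to 0.16. The same 5 members were called in both genotypes under that scaling. A second quantile normalization called them too, and in cKO it also called Lrp6 (0.59, adjusted p = 0.0401, limma) and Axin2 (-0.61, adjusted p = 0.0282).

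The effect of Sox9 deletion was then compared within each compartment. In the AF, Sfrp5 fell, and Frzb and Lrp5 had lower means in cKO without passing the test over all probe sets. Of the 10 members, 1 was called in the AF (0.0991% of all probe sets, and 0.0856% called lower) and 0 in the NP (0.122%) with limma. At an unadjusted p under 0.05 there were 3 members in the AF (10.6% of all probe sets) and 2 in the NP (4.58%). At the thresholds of the labels the counts were also 3 in the AF (3.49%) and 2 in the NP (1.18%). The groups did not overlap for 4 members in the AF (4.33%), namely Sfrp2, Sfrp5, Lrp5 and Axin2, and for 2 in the NP (2.93%), Sfrp5 and Dkk3. The members split evenly by sign in each compartment, with 5 higher and 5 lower in cKO. Their median change was -0.07 in both, while that of all probe sets was -0.03 in the AF and 0.00 in the NP.

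**Figure D3:**
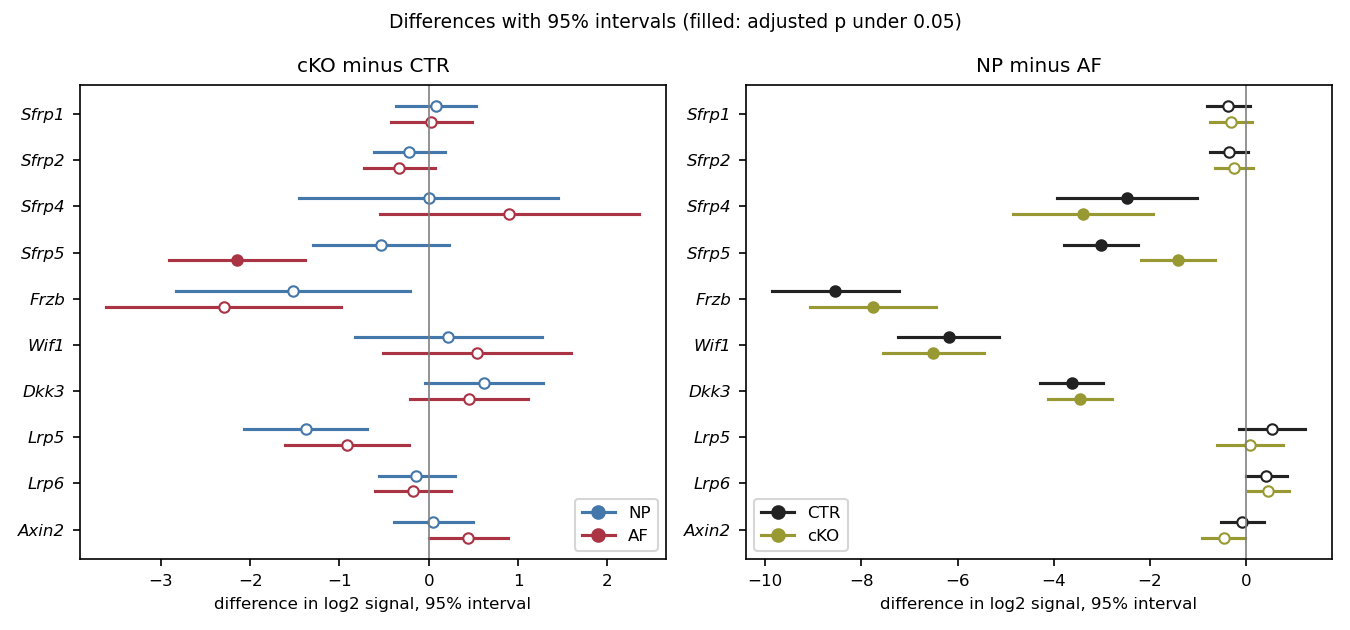
Differences in log2 signal (horizontal axis) with 95% intervals of the limma fit, cKO minus CTR on the left for NP (blue) and AF (red), and NP minus AF on the right for CTR (black) and cKO (olive). Filled points passed an adjusted p under 0.05. On the left only Sfrp5 in the AF is filled, while the intervals of Frzb and Lrp5 lie below 0 in both tissues; on the right the 5 filled genes all lie below 0.

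The Sfrp5 signal of 8.12 to 10.58 in AF CTR stood above the 6.59 to 7.13 of AF cKO, and the SD fell from 1.11 to 0.23. The change was -2.15 (SE 0.36, 95% interval -2.91 to -1.39, adjusted p = 0.0191, limma), a 4.44-fold fall. All 4 AF cKO arrays were still above the negative control median of their array, and their signal was above that of NP CTR (6.0 ± 0.25, SD, n = 4) without overlap. None of the 4 exceeded the 95th percentile of the negative controls, against 1 of 4 in AF CTR. In a fit on the 8 AF arrays alone the call was lost (SE 0.44, adjusted p = 0.334). Omitting 1 array ended it for AF CTR replicate 4 (adjusted p = 0.0635) and for AF cKO replicates 1 and 2 (0.0689 and 0.0711), as did omitting AF cKO replicates 2 and 4 (0.0675), also with NP cKO replicate 4 (0.0848). The change ranged from -2.46 to -1.63 over all alternatives. In the NP the change was -0.54 (SE 0.36, 95% interval -1.30 to 0.23, adjusted p = 1.0), between groups that were both at background. The difference between these changes, NP minus AF, was 1.61 (SE 0.51, unadjusted p = 0.00559, adjusted p = 0.732), so that Sfrp5 is not shown to respond differently in the 2 compartments. For this test of the difference, 0 of 10 members and 0 of all probe sets (0%) were called with limma, and 1 member had an unadjusted p under 0.05 (6.74% of all probe sets), also with a fold of at least 1.75 (4.40%).

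Markers of cartilage, marrow and muscle also differed between the AF groups. Of 14 cartilage markers, 11 were lower in cKO, with a median change of -1.54, and Acan and Ucma were called. The other 3 hardly changed (Matn1 0.02, Comp 0.05 and Chad 0.01). Sox9 drives the chondrocyte programme, so that less cartilage in a sample and lower marker expression in its cells cannot be told apart. All 12 neutrophil and granulocyte markers and all 12 skeletal muscle markers were higher in cKO, with medians of 3.10 and 1.82 and none called. Also higher were 6 of 6 erythroid (median 1.31), 9 of 9 endothelial (0.53), 8 of 9 macrophage (0.28) and 10 of 12 AF and tendon markers (0.34). None of these was called. The mean cartilage marker level was 14.27, 13.28, 11.59 and 12.48 in AF CTR and 11.35, 11.01, 11.77 and 10.78 in AF cKO, and the controls overlapped the cKO arrays through replicate 3. Sfrp5 was highest (10.58) in CTR replicate 2 and not in CTR replicate 1, where the cartilage markers were highest. CTR replicate 3 and cKO replicate 3 had similar cartilage levels (11.59 and 11.77), and their Sfrp5 signals were 8.12 and 7.13. Their neutrophil and granulocyte markers averaged 6.46 and 13.40. The part of cartilage, marrow, muscle and other cell content in the Sfrp5 difference was not tested.

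Frzb had a change of -2.29 in the AF (SE 0.63, 95% interval -3.61 to -0.98, unadjusted p = 0.00172, adjusted p = 0.197, limma), with means of 16.85 ± 0.82 in CTR and 14.56 ± 1.29 in cKO (SD, n = 4). The groups overlapped, because CTR replicate 1 (15.70) lay below cKO replicate 3 (16.07). These 2 arrays had the highest marrow markers of their groups, and without both of them the change was -3.18 (SE 0.62, adjusted p = 0.0265). They also held the lowest CTR and the highest cKO value of Frzb, so that leaving them out had to enlarge the fall. Frzb in the AF also passed the thresholds of the labels, which use the unadjusted p. Over the remaining alternatives it was not called in the AF, with adjusted p up to 0.551 (limma). In the NP its change was -1.52 (SE 0.63, 95% interval -2.83 to -0.21, adjusted p = 0.957), from 8.31 ± 0.68 to 6.79 ± 1.35, and NP cKO replicate 4 (8.54) lay within the CTR range. Cartilage markers averaged 8.86 in that array and 7.43 to 7.77 in the other NP cKO arrays, and their part in the Frzb value was not tested. Only 2 of 4 NP cKO arrays exceeded their negative control median for Frzb. As a bound, NP CTR was higher than NP cKO by 1.22 on the log2 scale. The Frzb changes of the NP and the AF differed by 0.77 (SE 0.89, adjusted p = 0.862).

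**Figure D4:**
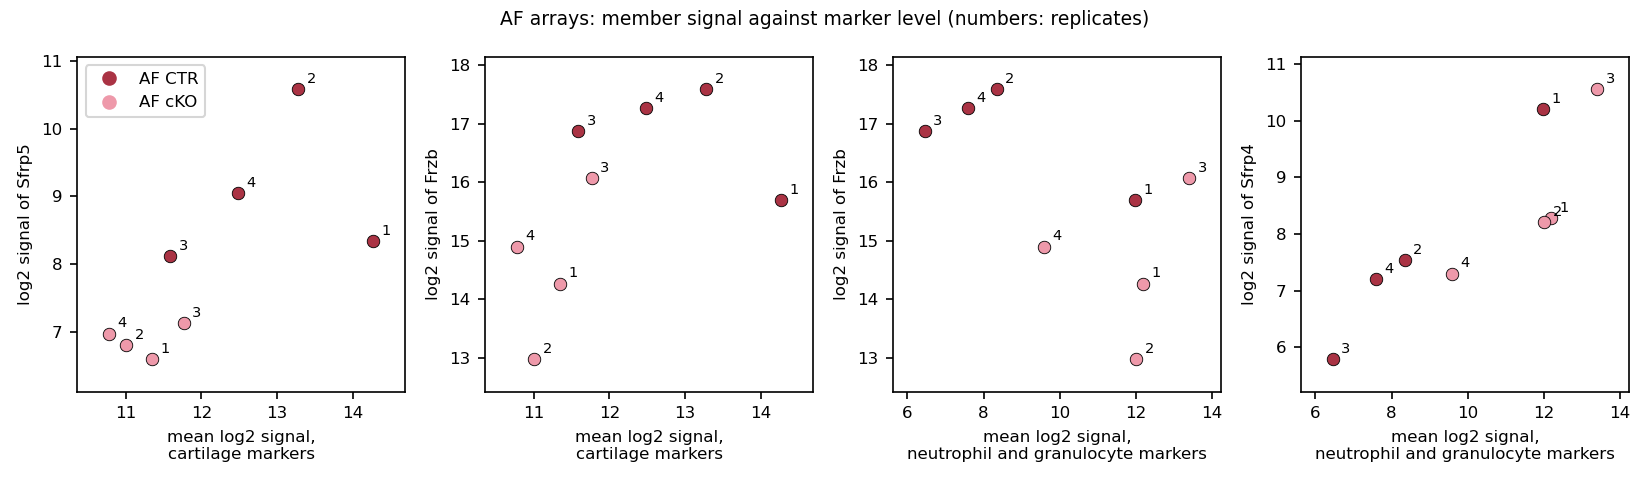
Log2 signal of Sfrp5, Frzb and Sfrp4 (vertical axes) in the 8 AF arrays against the mean log2 signal of cartilage or of neutrophil and granulocyte markers (horizontal axes), with CTR in dark red, cKO in pink and the replicate number beside each point. Sfrp5 is at most 7.13 in the cKO arrays and at least 8.12 in the CTR arrays, and Sfrp4 is highest in the 2 arrays CTR 1 and cKO 3.

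Lrp5, a co-receptor for Wnt ligands, had lower means in cKO in both compartments. It was 12.36, 12.19, 12.91 and 12.47 in NP CTR and 10.89, 12.32, 10.31 and 10.88 in NP cKO, where replicate 2 alone lay within the CTR range. The NP change was -1.38 (SE 0.33, 95% interval -2.07 to -0.69, unadjusted p = 5.3e-04, adjusted p = 0.216, limma). Without NP cKO replicate 2 it was -1.79 (SE 0.26, adjusted p = 0.00528), and under the other alternatives the adjusted p reached 0.651. The AF controls had Lrp5 signals of 11.35, 12.47, 12.24 and 11.70, and AF cKO had 11.10, 11.07, 10.91 and 11.03, with no overlap and a change of -0.92 (SE 0.33, 95% interval -1.61 to -0.22, adjusted p = 0.340). The order of the means was NP CTR, AF CTR, NP cKO and AF cKO, and each neighbouring pair overlapped in range.

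Lrp6, the closely related co-receptor, ran from 11.31 to 12.56 over all 16 arrays. Its group means were 12.32 ± 0.17 in NP CTR, 12.18 ± 0.29 in NP cKO, 11.90 ± 0.16 in AF CTR and 11.72 ± 0.33 in AF cKO (SD, n = 4), and neighbouring groups in this order overlapped. The change with genotype was -0.14 (95% interval -0.56 to 0.29) in the NP and -0.18 (95% interval -0.60 to 0.25) in the AF. NP minus AF was 0.41 (SE 0.20, adjusted p = 0.164, limma) in CTR and 0.45 (SE 0.20, adjusted p = 0.106) in cKO.

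Wif1 and Dkk3 did not pass the test for genotype in either compartment. Wif1 changed by 0.54 in the AF (SE 0.50, 95% interval -0.51 to 1.59, adjusted p = 0.728, limma), where cKO replicates 2 and 3 (14.47 and 14.44) stood above all controls and cKO replicate 4 (12.01) below them. Its NP change of 0.22 (SE 0.50) turned to -0.32 without NP cKO replicate 4. Dkk3 changed by 0.62 in the NP (SE 0.32, 95% interval -0.04 to 1.28, unadjusted p = 0.0630, adjusted p = 1.0), with all 4 cKO values (7.33 to 8.25) above all 4 CTR values (6.85 to 7.26). In the AF its change was 0.45 (SE 0.32, adjusted p = 0.624). Sfrp4 changed by 0.90 in the AF (SE 0.69, 95% interval -0.55 to 2.36, adjusted p = 0.660) and by 0.00 in the NP (SE 0.69). With single arrays left out, the Sfrp4 change in the AF ran from 0.25 (AF cKO replicate 3) to 1.75 (AF CTR replicate 1).

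Axin2 and Sfrp1 lay under background and Sfrp2 close to it, which limits what their values can show. Axin2 was under the negative control median in all 16 arrays, at 5.11, 5.06, 4.89 and 5.28 in AF CTR and 5.75, 5.43, 5.32 and 5.61 in AF cKO. These AF groups did not overlap, and the change was 0.44 (SE 0.21, unadjusted p = 0.0503, adjusted p = 0.470, limma). In the NP, Axin2 averaged 5.00 ± 0.40 in CTR and 5.06 ± 0.27 in cKO (SD, n = 4). Sfrp1 ran from 3.37 to 4.45 over all arrays and was above its negative control median in 0 of 16 arrays. Sfrp2 ran from 6.80 to 6.90 in AF CTR and from 6.44 to 6.64 in AF cKO, a change of -0.33 (SE 0.19, adjusted p = 0.547), and from 5.85 to 6.83 in the NP. It exceeded the negative control median of its array in 4 of 4 AF CTR and 4 of 4 AF cKO arrays, in 2 of 4 NP CTR and in 1 of 4 NP cKO arrays, and the 95th percentile in none of them. No fold is given for Axin2 and Sfrp1, whose signals were under the negative control median in all groups.

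The order of the group means was AF CTR, AF cKO, NP CTR and NP cKO for Sfrp5 and Frzb, and AF cKO, AF CTR, NP cKO and NP CTR for Wif1 and Dkk3. Sfrp5 was the only member in which no neighbouring groups in this order overlapped, although both NP groups were at background. For Frzb only AF cKO and NP CTR were separated, and for Wif1 only AF CTR and NP cKO. For Dkk3, AF CTR and NP cKO were separated, as were both NP groups, while the AF groups overlapped.

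Other genes of the pathway were taken from 5 lists with 104 genes, of which 99 were measured. None was called for genotype, with 0 of 99 in the NP and 0 of 99 in the AF at an adjusted p under 0.05 (limma), and 3 and 8 at an unadjusted p under 0.05, which 4.58% and 10.6% of all probe sets had. Their median change was 0.05 in the NP and -0.05 in the AF, against 0.00 and -0.03 over all probe sets. Between the compartments of CTR, 32 of 99 were called (20.1% of all probe sets), 28 of them lower and 4 higher in the NP, with a median of -0.29 against 0.04 over all probe sets. In cKO, 33 were called (25.9% of all probe sets), 28 lower and 5 higher, with a median of -0.19 against 0.07.

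Of 19 Wnt ligand genes, 2 were called between compartments in CTR, a share under the 20.1% of all probe sets. Wnt16, which encodes a ligand of joint and bone tissue, was higher in the NP by 1.93 (SE 0.36, adjusted p = 8.1e-04, limma), with 10.81 ± 0.61 against 8.87 ± 0.66 (SD, n = 4), and had a genotype change of -0.74 (SE 0.36, adjusted p = 1.0) in the NP. Wnt4 averaged 8.12 in NP CTR and 8.63 in NP cKO (change 0.51, SE 0.24, adjusted p = 1.0). Wnt8b was at background, from 3.44 to 4.59 over all arrays. Of 21 Frizzled and other receptor genes, 11 were called in CTR (20.1% of all probe sets), 9 of them lower in the NP (10.1%). Fzd2, a Frizzled receptor, had a genotype change of -1.03 in the NP (SE 0.27, adjusted p = 0.331), from 9.90 ± 0.43 to 8.87 ± 0.39 without overlap. Gpc4, a cell surface glypican, was higher in the NP of CTR by 1.45 (SE 0.26, adjusted p = 6.3e-04) and had a genotype change of -0.75 there (SE 0.26, adjusted p = 0.738). Fzd3 averaged 6.74 in AF CTR and 6.0 in AF cKO, which is at background (change -0.75, SE 0.21, adjusted p = 0.208).

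Of 19 other secreted modulators, 8 were called in CTR (20.1% of all probe sets), all lower in the NP (10.1%). Rspo3 and Rspo4, which encode R-spondins that enhance Wnt signalling, were among them, while Rspo1 and Rspo2 were not called. Rspo3 was 8.09 ± 1.83 in AF CTR and 6.58 ± 0.49 in AF cKO (change -1.51, SE 0.57, adjusted p = 0.370, limma), and Rspo4 was 7.38 ± 0.73 and 6.70 ± 0.24 (change -0.68, SE 0.32, adjusted p = 0.463). Sost, an osteocyte inhibitor that binds Lrp5 and Lrp6, was near background at 6.63 ± 0.15 and 6.13 ± 0.23 (SD, n = 4). Of 27 measured intracellular transducers, 5 were called between compartments in CTR, 4 of them lower in the NP, which is near the share of all probe sets (20.1%). The transcription factor gene Tcf7l2 was lower in the NP by 1.63 on the log2 scale (SE 0.37, adjusted p = 0.00380) and had a genotype change of 0.91 in the AF (SE 0.37, adjusted p = 0.395). The co-repressor gene Tle1 was lower in the NP at 8.52 against 10.46 (adjusted p = 1.0e-05), and Apc2 was at background in every group. Of 13 measured feedback and target genes, 6 were called in CTR (20.1% of all probe sets), all lower in the NP (10.1%). Bambi, a pseudoreceptor gene, was 6.43 ± 0.23 in NP CTR and 7.96 ± 0.22 in AF CTR (adjusted p = 2.9e-05), and Nkd1, a feedback inhibitor gene, was 5.88 ± 0.34 and 7.05 ± 0.08 (adjusted p = 5.7e-04). Ccn4 had a genotype change of 0.55 in the AF (SE 0.25, adjusted p = 0.448), between means of 5.89 and 6.44 at background.

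The genes most like each member were named by Pearson's r of the log2 signals over the 16 arrays, as a description. The search covered 18589 probe sets with 1 gene symbol, predicted genes left out. The arrays share 2 tissues, and a compartment difference alone gives a high r. Frzb was most like Stk32b (r = 0.99), Rcc2 and Msi1 (both 0.98), and Wif1 was most like Cyria, Hoxc6 and Pax1 (0.99 each). Pax1 is a sclerotome transcription factor gene. Dkk3 was most like Dpysl3, Myo1d and Pam (0.99 each). Sfrp5 was most like Ppp1r1b (0.96), Fgfrl1 (0.95) and Cyp3a13 (0.94). Sfrp4 was most like Laptm5 and Tmem176a (0.98 each) and Cemip (0.97), of which Laptm5 is known from blood cells. Lrp5 was most like Tafa5 (0.95), Zfp385a (0.92) and Sh3tc2 (0.86), and Lrp6 most like Nek9 (0.91), Pak3 (0.90) and Rab11fip2 (0.89). For the members under or close to background, the most like were Sh2b3, Sftpa1 and Lrmp for Sfrp1 (0.83 to 0.85), Stox1, Pcgf1 and Olfr837 for Sfrp2 (0.87 to 0.88), and Apobec3, Chst13 and Ccl6 for Axin2 (0.78 to 0.82).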

How the data were processed

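RNA from 16 disc tissue samples was labelled with the GeneChip WT Plus kit and hybridised to 1-colour Affymetrix arrays, per the labels' protocols. The deposited values are log2 signals that the authors made by signal space transformation RMA, per the labels, in Transcriptome Analysis Console, per the submitters' processing notes. No version of it was given in the sources used here. Of 28846 probe sets, 6640 controls were left out and 22206 tested, without further normalization or filter. The number of arrays limits the precision.

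All 16 arrays were fitted as 4 group means with limma 3.58.1 in R 4.3.3, and p-values were Benjamini-Hochberg adjusted over all 22206 probe sets; a call is an adjusted p under 0.05. The script was tested on simulated data. Figures were drawn with matplotlib 3.10.9.

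The members and lists were chosen with earlier results of these data known. All members are named, and of the other pathway genes each called for genotype or else the 3 with the smallest p per list. Symbols come from the platform's annotation, and 5 of 104 pathway genes were not matched (Ctnnb1, Dvl2, Tcf7, Rnf43 and Ccnd1), nor were 1 to 4 markers in 5 marker lists. The titles give both tissues of a mouse 1 code; between such pairs, r of the deviations ran from -0.293 to 0.348, over 0.1 for 3 of 8 pairs. Alternatives were array weights, an intensity trend, 1 probe set per gene, a filter on dim probe sets, quantile normalization applied again, median centring, the thresholds named in the labels (a fold of at least 1.75 with an unadjusted p under 0.05), the arrays of the groups compared alone, blocks, and leaving out arrays. Leaving out NP cKO replicate 4 with AF cKO replicates 2 and 4 was added after seeing the data. The other sets, AF cKO replicates 2 and 4, and AF CTR replicate 1 with AF cKO replicate 3, were picked by marker levels of these same arrays.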

Additional observations from a re-analysis of the deposited data

Results flagged for a closer look

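Among the 40 groups of 4 arrays formed by the 10 genes, 4 held an array far from the other 3, where chance gives about 1 in 20. Wif1 was 8.52 in NP cKO replicate 4 and 6.29 to 6.60 in the other NP cKO arrays. In that array the AF and tendon markers averaged 8.86, and whether AF tissue has a part in the Wif1 value was not tested. Sfrp5 was 5.18 in the same array against 5.54 to 5.57, under background. Axin2 was 5.60 in NP CTR replicate 2 against 4.73 to 4.85, and 5.45 in NP cKO replicate 1 against 4.88 to 4.97, all under background.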

How the results depend on the processing

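Of 1070 values of the members under alternatives, 1047 kept their side of the threshold and their direction, or, for 30 uncalled values, changed sign by less than the SE. The 1 member called in the AF became 0 in a fit on the 8 AF arrays alone, 0 without AF cKO replicates 2 and 4, 0 without these and NP cKO replicate 4, 2 without AF CTR replicate 1 and AF cKO replicate 3, 3 under the thresholds of the labels, and 0 to 1 without single arrays. The 0 members called in the NP became 2 under the thresholds of the labels and 0 to 1 without single arrays. For the difference of the changes the labels' thresholds gave 1. The 5 members called between compartments numbered 4 to 7 under all alternatives. The direction turned for values that were not called: Wif1 in the NP (-0.32 without NP cKO replicate 4, alone or with AF cKO replicates 2 and 4, and -0.32 to 0.43 without single arrays), Dkk3 in the AF (-0.04 without AF CTR replicate 1 and AF cKO replicate 3), the differences of the changes for Frzb (-0.42) and Dkk3 (-0.38) without NP cKO replicate 4 and AF cKO replicates 2 and 4, and Lrp5 between compartments in cKO (-0.33 without NP cKO replicate 2, and -0.33 to 0.34 without single arrays).

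Under the replicate block, Sfrp5 in the AF changed by -2.15 (adjusted p = 0.0307, limma), and no call of a member was changed by it or by the mouse as a block. Over all probe sets, the 27 calls in the NP ranged from 10 to 30 and the 22 in the AF from 8 to 142 under alternatives other than the labels' thresholds, which gave 262 and 774. The 4462 and 5754 calls between compartments ranged from 3201 to 5062 and from 3261 to 6607. Every member has 1 probe set, so no other could be tried. A dim signal limits Axin2, Sfrp1, Sfrp2, the NP values of Sfrp4, Sfrp5 and Wif1, and Frzb in NP cKO. For Frzb and Dkk3, no NP array exceeded the 95th percentile of the negative controls. In the AF it was exceeded by 0 of 4 CTR and 1 of 4 cKO arrays for Sfrp4, and by 1 of 4 and 0 of 4 for Sfrp5.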
